A study of Mus musculus with 6 samples.

Results

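The genes described are 34 mouse genes for mitochondrial fuel catabolism, out of 54532 genes in the expression table. They were taken by name, and each name was matched to an Ensembl gene identifier through GENCODE. The first set holds 17 genes of the tricarboxylic acid (TCA) cycle and the malate-aspartate shuttle, the second holds 14 genes of branched-chain amino acid catabolism, and the third holds 3 genes of ketone body use. All 34 passed the filter on low values. The study modelled heart failure with preserved ejection fraction (HFpEF) in male C57BL/6 mice that were 6 to 8 weeks old at the start. HFpEF mice ate a diet with 60% of its energy from fat and drank water with 0.5 g/L L-NAME, an inhibitor of nitric oxide synthases, for 12 weeks. Chow mice had standard food and plain water over the same 12 weeks, and no library came from mice given the diet or L-NAME alone, so the effects of these 2 agents cannot be told apart. RNA from left ventricular myocardium was sequenced in 6 libraries, 3 Chow and 3 HFpEF, each from its own mouse.

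The TCA cycle burns acetyl-CoA in the mitochondrial matrix and hands its electrons to the respiratory chain, and the malate-aspartate shuttle carries the reducing power of glycolysis into the same compartment. Leucine, isoleucine and valine are first transaminated and then committed to breakdown by the branched-chain ketoacid dehydrogenase (BCKDH), a complex that a kinase switches off and a phosphatase switches on. Ketone bodies made by the liver are taken apart in the heart by an enzyme that borrows CoA from succinyl-CoA of the TCA cycle. The heart is rich in mitochondria and draws on all of these fuels, and cardiomyocytes carry most of this machinery.

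Expression was given as FPKM, fragments scaled to exon length and to the size of the library, so levels can be compared between genes. Recovered reads totalled 13076772 to 15574914 in Chow and 13461735 to 16027084 in HFpEF libraries, and 395 to 36421 reads lay behind each member in each library. HFpEF replicate 3 stood apart: on the first principal component it scored 75.5, against 11.6 and 12.7 in the other HFpEF libraries and -35.8 to -31.7 in Chow. Mitochondrially encoded genes took 7.17% of its reads, against 20.1% to 26% in the other libraries. The 14 cardiomyocyte markers were all present, with summed FPKM of 20617 to 22653 in Chow and 14834, 15555 and 10302 in HFpEF replicates 1, 2 and 3. The 9 fibroblast and matrix markers summed to 265 to 312 in Chow and to 532, 582 and 5737 in HFpEF. Summed atrial markers were 14.2, 16.8 and 548 in Chow and 2601, 3909 and 61.2 in HFpEF, and adipocyte markers were at 0 to 0.048 in Chow and at 36.6 to 89.3 in HFpEF.

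The comparison of HFpEF with Chow asks how these catabolic genes stood after 12 weeks of both stresses. All 34 members had a lower fitted level in HFpEF, with log2 fold changes from -1.12 for Bdh1 to -0.24 for Pcx and a median of -0.68, while the median over all 14227 genes tested was -0.012. Of all genes tested, 6.16% had a log2 fold change below the members' median. No member passed an adjusted p of 0.05 in limma with all 6 libraries. Only 14 genes did so among all tested, which is 0.0984%, and 8 genes, 0.0562%, also met the study's further threshold, a log2 fold change of 2 or more in either direction. The study itself applied that threshold to DESeq2 results and reported more genes, so its number and this one come from unlike tests. At an unadjusted p of 0.05 in limma, 25 of 34 members were lower and 0 were higher, where the background was 13.1% lower and 10.2% higher. In 32 of 34 members every HFpEF library was below every Chow library, a pattern found in 19.8% of all genes, and its opposite, found in 15.5% of all genes, occurred in no member. The exceptions were Pcx and Ppm1k. The exact two-sided permutation p was 0.1 for the 32 genes, the smallest that 3 libraries against 3 can give, and 0.9 for Pcx and Ppm1k.

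The members were low to different degrees in the 3 HFpEF mice. The median member stood at 76.4% of its Chow mean in HFpEF replicate 1, at 74.9% in replicate 2 and at 43.8% in replicate 3. Replicate 3 was the lowest HFpEF library for 33 of 34 members, Bdh1 being the exception. The Chow libraries lay close together for most members. Fh1 was among the closest, with a standard deviation of 0.895 FPKM around a mean of 162, while Bdh1 had 6.54 around 19.8.

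**Figure D1:**
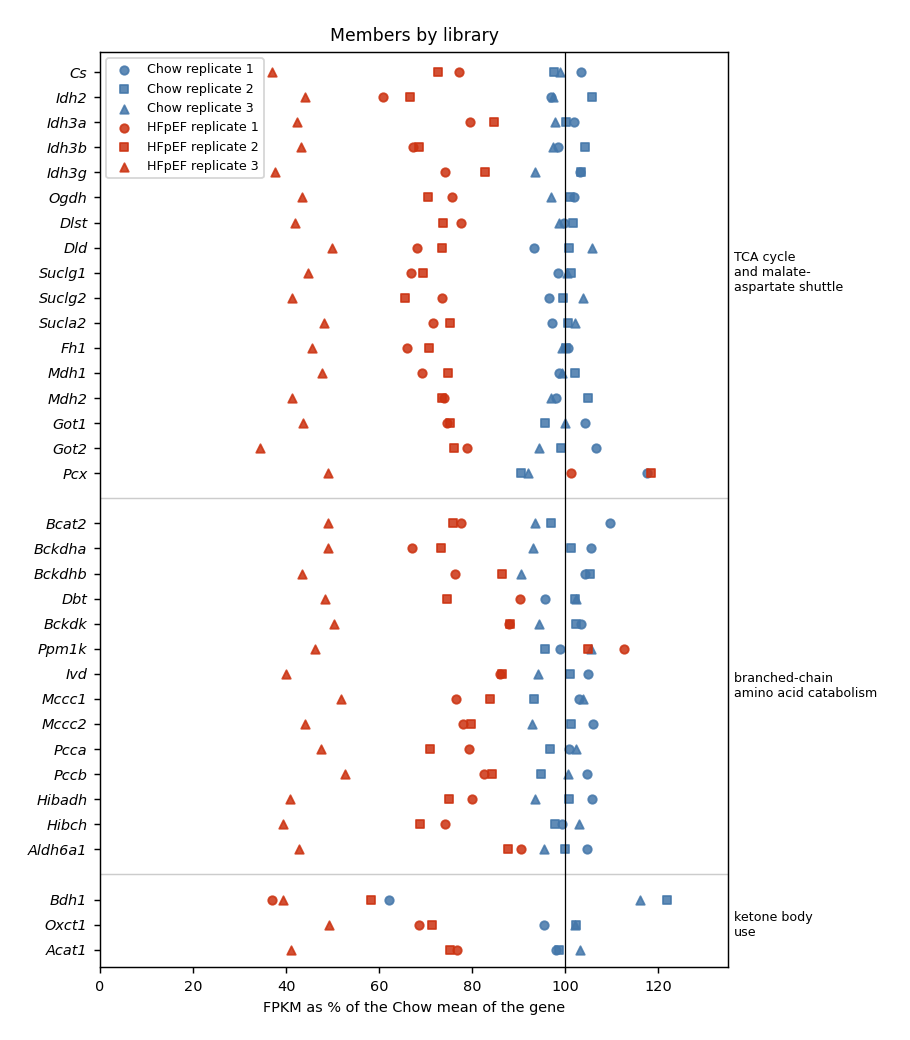
FPKM of each of the 34 members in each library (x axis, percent of the gene's own Chow mean; blue, Chow; red, HFpEF; circle, square and triangle, replicates 1, 2 and 3). HFpEF replicate 3 lies furthest to the left for all members but Bdh1, and HFpEF replicates 1 and 2 lie below all Chow points except for Pcx and Ppm1k.

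Leaving out HFpEF replicate 3 brought every fold nearer 0. The median log2 fold change of the members became -0.41, and 21 of 34 fell with an adjusted p under 0.05 in limma, against a background of 5.5% of all genes lower and 2.85% higher. These were 15 of 17 TCA and shuttle members, 4 of 14 branched-chain members (Bckdha, Pcca, Hibch and Hibadh) and 2 of 3 ketone members (Oxct1 and Acat1). No member rose, and Bdh1, with the largest fold of all, did not pass (adjusted p of 0.173 in limma). Pcx and Ppm1k were the members whose fold changed sign, to 0.14 and 0.12. Standard errors were smaller in this fit for all members but Bdh1, for Cs 0.060 against 0.29 with all 6 libraries. Leaving out any other single library gave 0 members with an adjusted p under 0.05 in limma.

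Cardiomyocyte markers were lower in HFpEF too. All 14 had every HFpEF library below every Chow library, a pattern found in 19.8% of all genes. Their median log2 fold change was -0.68, like that of the members, or -0.48 without HFpEF replicate 3. Single markers differed, from -0.48 for Ryr2 to -0.98 for Myl3 and -1.08 for Myl2. The part of these markers, of the matrix and atrial markers and of the lower mitochondrially encoded share in HFpEF, lowest in replicate 3, in the members' lower levels was not tested. In bulk tissue, fewer cardiomyocytes and less RNA of these genes per cardiomyocyte cannot be told apart. When libraries were scaled to these markers instead, the median log2 fold change was 0.010 over the members and 0.65 over all genes. Single markers still differed after this scaling, from -0.39 for Myl2 to 0.21 for Ryr2. On that scale 20 members lay above 0 and 14 below, and 0 of 34 had an unadjusted p under 0.05 in limma, where 0.253% of all genes were lower and 55.3% were higher. Only Idh2 was still below Chow in every HFpEF library on that scale, as were 0.583% of all genes, and Mccc1 and Pccb were above it in every library, as were 68.6% of all genes. With the same scaling and HFpEF replicate 3 left out, 5 members were called higher (Ppm1k, Pcx, Aldh6a1, Bckdk and Ivd, with adjusted p from 0.0054 to 0.0484 in limma), against a background of 49.6%. In that fit 0 members were called lower, as were 51 of the 14227 genes tested.

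**Figure D2:**
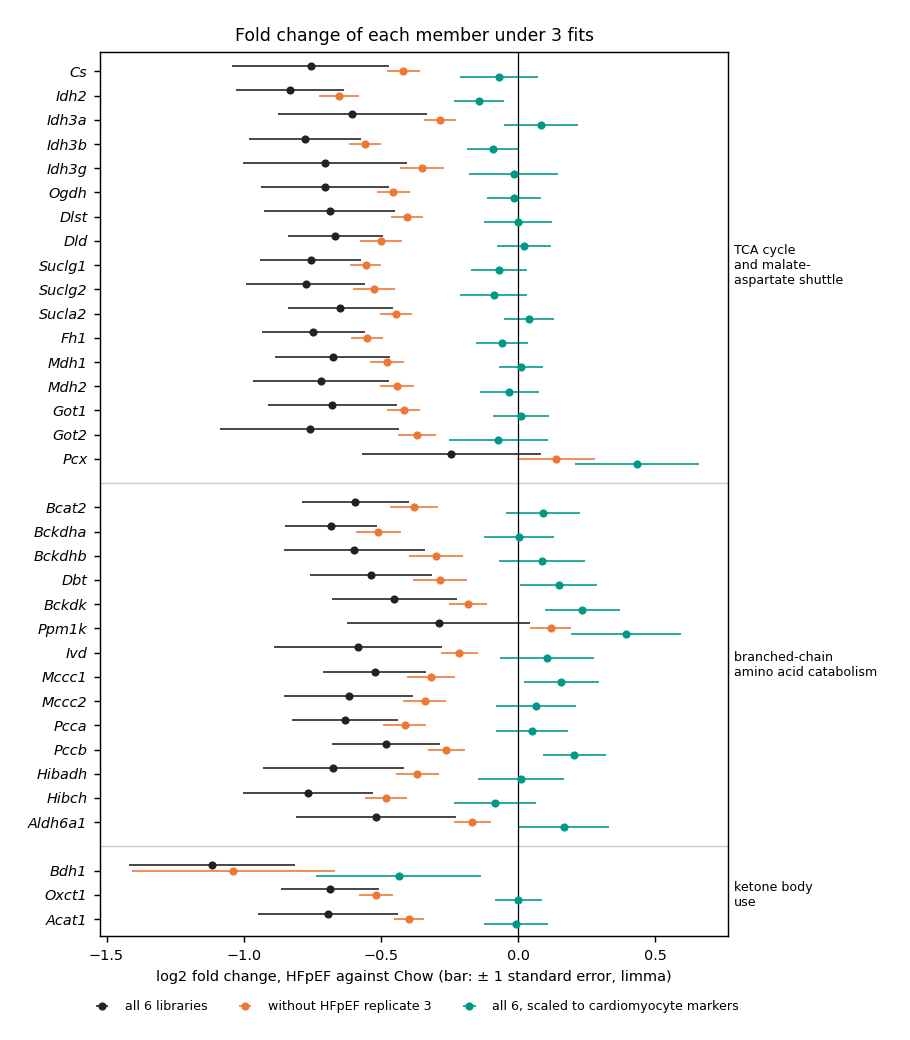
Log2 fold change of each member, HFpEF against Chow, with 1 standard error from limma: all 6 libraries (black), without HFpEF replicate 3 (orange) and all 6 scaled to cardiomyocyte markers (green). Black points are all below 0, orange points are below 0 except Pcx and Ppm1k, and green points lie around 0 with Bdh1 lowest at -0.43.

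**Figure D3:**
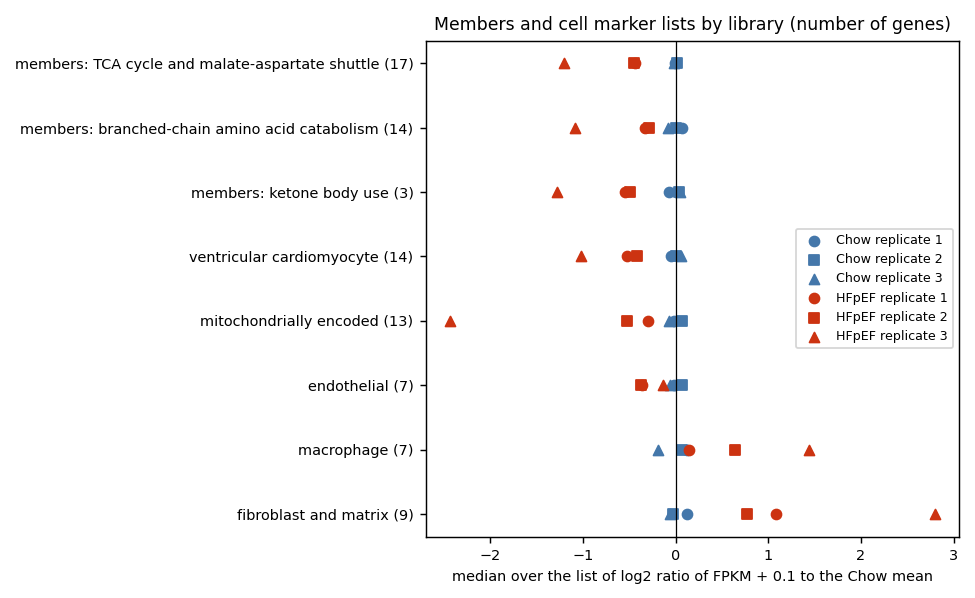
Median over each list of the log2 ratio of FPKM + 0.1 to the gene's Chow mean, per library (blue, Chow; red, HFpEF; marker shapes, replicates 1 to 3), with the number of genes tested in brackets. The 3 member sets and the cardiomyocyte markers (labelled ventricular cardiomyocyte) lie at similar places in each HFpEF library (-1.20 for TCA members and -1.02 for cardiomyocyte markers in replicate 3), while fibroblast and matrix markers lie on the other side of 0.

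The members' promoters were searched for a pair of elements known from genes of oxidative metabolism. The search covered both strands of the 300 bases around each RefSeq start site (250 before, 50 after, GRCm38.p6). Promoters were matched for 31 of 34 members, all but Acat1, Dbt and Idh3a. The estrogen-related receptor element TNAAGGTCA was in 0 of 31 members and in 1.43% of all genes. The nuclear respiratory factor 1 (NRF1) element GCGCATGCG was in 2 of 31 members, or 6.45%, and in 1.95% of all genes. Those members were Ogdh and Pccb, whose windows are printed because no other matched member holds either element. The capitals mark the element, which begins 15 bases before the start site of the Ogdh window printed (chr11:6292308-6292607, plus strand), 36 bases before the other RefSeq start site of Ogdh whose window holds the element, and 35 bases before that of Pccb (chr9:101034835-101035134, minus strand).
Ogdh: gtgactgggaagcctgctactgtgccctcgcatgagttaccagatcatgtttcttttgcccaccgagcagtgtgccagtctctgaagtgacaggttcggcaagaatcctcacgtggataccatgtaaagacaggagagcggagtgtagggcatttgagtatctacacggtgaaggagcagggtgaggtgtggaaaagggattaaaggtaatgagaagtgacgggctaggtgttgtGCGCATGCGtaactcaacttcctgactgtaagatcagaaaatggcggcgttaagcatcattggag
Pccb: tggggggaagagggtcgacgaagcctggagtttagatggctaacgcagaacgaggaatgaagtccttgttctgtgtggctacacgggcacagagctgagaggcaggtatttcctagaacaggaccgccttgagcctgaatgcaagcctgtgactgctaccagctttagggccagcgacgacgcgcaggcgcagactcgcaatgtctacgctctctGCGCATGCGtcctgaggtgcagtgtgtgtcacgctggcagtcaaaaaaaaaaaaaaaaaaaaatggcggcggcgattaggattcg
A match describes these letters only, and binding was not measured.

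The 17 TCA cycle and shuttle members had a median log2 fold change of -0.70. Of these, 13 had an unadjusted p under 0.05 in limma, all lower, where 13.1% of all genes were lower. In 16 of them every HFpEF library was below every Chow library, as in 19.8% of all genes. Chow levels of the set ran from 9.21 FPKM for Pcx to 828 for Mdh1.

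Citrate synthase (Cs), which opens the cycle by joining acetyl-CoA to oxaloacetate, was at 221, 208 and 211 FPKM in Chow and at 165, 155 and 79.1 in HFpEF. Its groups did not overlap, and the log2 fold change of -0.76 had a standard error of 0.29 and an adjusted p of 0.189 in limma. It was -0.42 when HFpEF replicate 3 was left out, with an adjusted p of 0.0184.

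Idh2 (ENSMUSG00000030541, chr7:80094846-80115392 on GRCm38, minus strand), the mitochondrial NADP-dependent isocitrate dehydrogenase, had the lowest unadjusted p of all members and the second highest level. It stood at 683, 745 and 686 FPKM in Chow (705 ± 34.8, SD, n = 3) and at 429, 470 and 310 in HFpEF (403 ± 83.1, SD, n = 3). The HFpEF libraries were all well below the lowest Chow library. The log2 fold change was -0.83 with a standard error of 0.20 and an adjusted p of 0.116 in limma, and -0.65 with an adjusted p of 0.0138 without HFpEF replicate 3. Scaled to cardiomyocyte markers it was -0.14, with an adjusted p of 0.208 in limma.

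The NAD-dependent isocitrate dehydrogenase, the rate-controlling form of the cycle, is built from the subunits of Idh3a, Idh3b and Idh3g. Idh3a, the catalytic subunit, had 131, 129 and 126 FPKM in Chow and 102, 109 and 54.3 in HFpEF. Idh3b was at 222 to 238 FPKM in Chow and at 98.3 to 156 in HFpEF, and Idh3g was at 152 to 168 and at 61.0 to 134. For all 3 genes every HFpEF library was below every Chow library, as for 19.8% of all genes. Log2 fold changes were -0.60, -0.78 and -0.70, with adjusted p from 0.121 to 0.237 in limma. With HFpEF replicate 3 left out, Idh3a and Idh3b fell (adjusted p of 0.0427 and 0.0132) while Idh3g had a log2 fold change of -0.35 and an adjusted p of 0.0515 in limma.

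The 2-oxoglutarate dehydrogenase complex takes the cycle on to succinyl-CoA. Its E1 gene Ogdh, named above for its promoter, was at 469, 465 and 446 FPKM in Chow and at 348, 325 and 200 in HFpEF. The E2 gene Dlst was at 69.0 to 71.1 FPKM in Chow and at 29.4 to 54.3 in HFpEF. Dld (ENSMUSG00000020664, chr12:31331277-31351453, minus strand), the E3 subunit that this complex shares with pyruvate dehydrogenase and BCKDH, was at 121, 131 and 138 FPKM in Chow and at 88.5, 95.5 and 64.8 in HFpEF. Groups did not overlap for these genes either, a pattern found in this direction in 19.8% of all genes. For Dld the log2 fold change was -0.67 with a standard error of 0.17 and an adjusted p of 0.119 in limma. All 3 genes fell without HFpEF replicate 3 (adjusted p of 0.0165 for Ogdh, 0.0185 for Dlst and 0.0208 for Dld in limma), as did 5.5% of all genes.

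Succinyl-CoA synthetase makes a nucleotide triphosphate directly, and its alpha subunit is encoded by Suclg1 (ENSMUSG00000052738, chr6:73248382-73276911, plus strand). Suclg1 was at 82.4, 84.8 and 84.0 FPKM in Chow (83.7 ± 1.23, SD, n = 3) and at 56.0, 58.1 and 37.5 in HFpEF (50.5 ± 11.3, SD, n = 3). All HFpEF libraries were below Chow, with a log2 fold change of -0.76, a standard error of 0.18 and an adjusted p of 0.119 in limma. The beta subunit decides the nucleotide: Sucla2, specific for ATP, was at 146 to 153 FPKM in Chow and at 72.3 to 113 in HFpEF, and Suclg2, specific for GTP, was at 38 to 40.8 and at 16.2 to 28.9. Their log2 fold changes were -0.65 and -0.77. All 3 subunit genes fell without HFpEF replicate 3 (adjusted p from 0.0132 to 0.0186 in limma), as did 5.5% of all genes.

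Fumarase, which hydrates fumarate to malate, is encoded by Fh1 (ENSMUSG00000026526, chr1:175600374-175625635, minus strand). It was at 163, 162 and 161 FPKM in Chow and at 107, 114 and 73.5 in HFpEF (98.2 ± 21.7, SD, n = 3). Fh1 thus had nearly the same level in the 3 Chow mice, and each HFpEF mouse was lower. The log2 fold change was -0.75 with a standard error of 0.19 and an adjusted p of 0.119 in limma, or -0.55 and 0.0132 without HFpEF replicate 3.

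Mdh1 (ENSMUSG00000020321, chr11:21556787-21572367, minus strand), the cytosolic malate dehydrogenase of the shuttle, had the highest level of all members. It was at 817, 846 and 822 FPKM in Chow (828 ± 15.4, SD, n = 3) and at 572, 619 and 394 in HFpEF (529 ± 119, SD, n = 3). The groups did not overlap, with a log2 fold change of -0.68, a standard error of 0.21 and an adjusted p of 0.148 in limma. Its mitochondrial counterpart Mdh2 was at 327, 351 and 324 FPKM in Chow and at 247, 245 and 138 in HFpEF. The aspartate aminotransferases Got1, cytosolic, and Got2, mitochondrial, had log2 fold changes of -0.68 and -0.76, with Got1 at 306 to 333 FPKM in Chow and 140 to 240 in HFpEF and Got2 at 168 to 190 and 61.3 to 141. All 4 shuttle enzymes fell without HFpEF replicate 3, as did 5.5% of all genes, with adjusted p from 0.0162 for Mdh1 to 0.035 for Got2 in limma.

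Pcx, pyruvate carboxylase, which refills the cycle with oxaloacetate, was the member of this set whose groups overlapped. It was at 10.8, 8.34 and 8.47 FPKM in Chow and at 9.33, 10.9 and 4.51 in HFpEF. HFpEF replicates 1 and 2 lay within or just above the Chow range and replicate 3 lay below it. The log2 fold change was -0.24 with a standard error of 0.33 and an adjusted p of 0.669 in limma, and 0.14 with an adjusted p of 0.605 without HFpEF replicate 3. Pcx had the lowest level of all members.

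**Figure D4:**
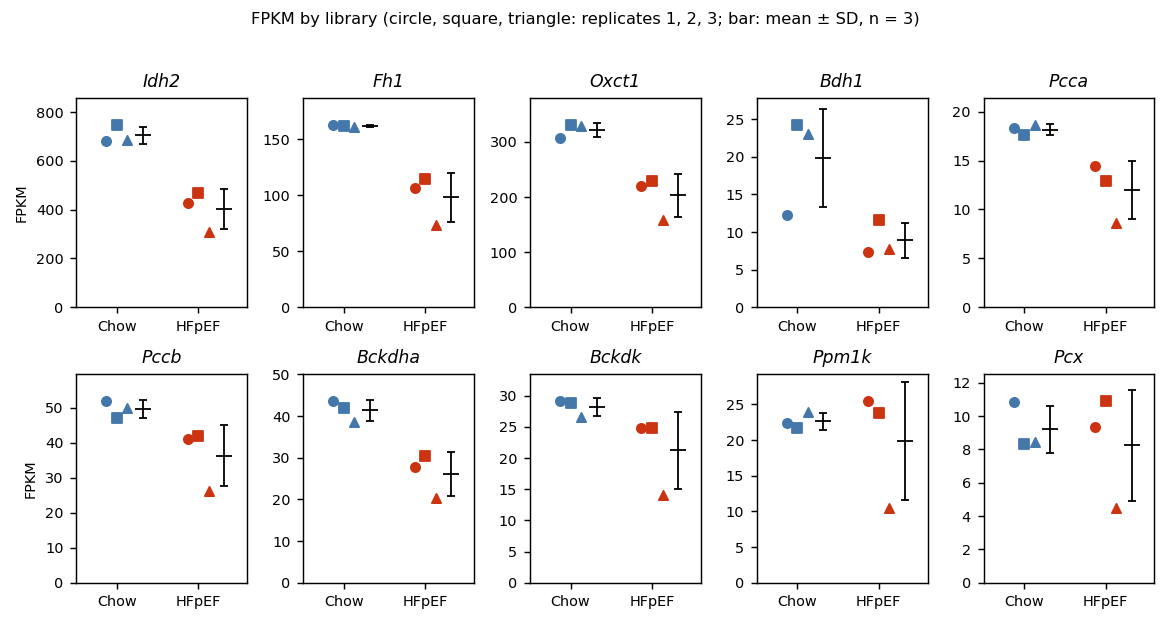
FPKM of 10 members per library (blue, Chow; red, HFpEF; circle, square and triangle, replicates 1, 2 and 3), with mean and SD over n = 3 beside the points; each y axis starts at 0 and has its own scale. Groups are apart for 8 genes, and for Ppm1k and Pcx only HFpEF replicate 3 lies below the Chow points.

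The 14 branched-chain members had a median log2 fold change of -0.59. Of these, 9 had an unadjusted p under 0.05 in limma, all lower, where 13.1% of all genes were lower. In 13 of them every HFpEF library was below every Chow library, as in 19.8% of all genes. Chow levels of the set, 12.3 FPKM for Hibch to 81.7 for Ivd, were lower than those of most TCA members.

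Bcat2, the mitochondrial aminotransferase that takes the first step, was at 33.6, 29.7 and 28.7 FPKM in Chow and at 23.8, 23.3 and 15.0 in HFpEF. No HFpEF library reached the lowest Chow library. The log2 fold change was -0.59 with a standard error of 0.20 and an adjusted p of 0.159 in limma, and -0.38 with an adjusted p of 0.051 without HFpEF replicate 3.

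BCKDH commits the ketoacids to oxidation. Bckdha (ENSMUSG00000060376, chr7:25629946-25658981, minus strand), its E1 alpha subunit, was at 43.6, 41.9 and 38.5 FPKM in Chow (41.4 ± 2.60, SD, n = 3) and at 27.8, 30.3 and 20.2 in HFpEF (26.1 ± 5.25, SD, n = 3). The groups did not overlap, and the log2 fold change of -0.68 had a standard error of 0.17 and an adjusted p of 0.119 in limma. Bckdha fell by 0.51 on the log2 scale without HFpEF replicate 3, with an adjusted p of 0.0235 in limma. B3gnt8, on the opposite strand, covers 61.7% of the exon bases of Bckdha, and without strand their reads cannot be told apart there; B3gnt8 was itself listed at 0.816 to 1.22 FPKM. The E1 beta gene Bckdhb was at 36.0, 36.4 and 31.3 FPKM in Chow and at 26.3, 29.9 and 15.0 in HFpEF, and the E2 gene Dbt was at 21 to 22.5 and at 10.6 to 19.8. Their log2 fold changes were -0.60 and -0.54, and neither passed an adjusted p of 0.05 in limma with or without HFpEF replicate 3 (0.128 and 0.14 without it).

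The regulators of BCKDH had fold changes nearer 0 than its subunits, a difference that was not tested, and both were singled out after their values were seen. Bckdk, the kinase that inactivates the complex, was at 29.2, 28.8 and 26.6 FPKM in Chow and at 24.8, 24.9 and 14.2 in HFpEF. Ppm1k, the phosphatase that activates it, was at 22.4, 21.6 and 23.9 FPKM in Chow and at 25.5, 23.8 and 10.5 in HFpEF. The Bckdk groups did not overlap, while for Ppm1k HFpEF replicate 1 was above all Chow libraries, replicate 2 was within their range and replicate 3 was below them. The log2 fold changes were -0.45 for Bckdk and -0.29 for Ppm1k (standard errors of 0.23 and 0.33, adjusted p of 0.278 and 0.613 in limma), and -0.18 and 0.12 without HFpEF replicate 3 (adjusted p of 0.173 and 0.383).

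On the leucine branch, Ivd, isovaleryl-CoA dehydrogenase (ENSMUSG00000027332, chr2:118861954-118882909, plus strand), had the highest level of the set. It was at 85.6, 82.5 and 76.8 FPKM in Chow (81.7 ± 4.45, SD, n = 3) and at 70.3, 70.6 and 32.6 in HFpEF (57.8 ± 21.8, SD, n = 3). The groups did not overlap, but HFpEF replicate 3 was far below the other HFpEF libraries, and the log2 fold change of -0.58 had a standard error of 0.31 and an adjusted p of 0.293 in limma. Without that library it was -0.21, with an adjusted p of 0.117. The alpha and beta subunits of methylcrotonyl-CoA carboxylase, Mccc1 and Mccc2, were at 11.7 to 13 and 23.1 to 26.4 FPKM in Chow and at 6.50 to 10.5 and 11 to 19.9 in HFpEF, with log2 fold changes of -0.52 and -0.62.

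Propionyl-CoA carboxylase takes the products of isoleucine and valine towards succinyl-CoA. Pcca (ENSMUSG00000041650, chr14:122534324-122891100, plus strand), its alpha subunit, was at 18.3, 17.6 and 18.6 FPKM in Chow (18.2 ± 0.521, SD, n = 3) and at 14.4, 12.9 and 8.63 in HFpEF (12.0 ± 2.99, SD, n = 3). Pccb (ENSMUSG00000032527, chr9:100982032-101034898, minus strand), its beta subunit and the other member whose promoter is printed above, was at 51.9, 47.0 and 49.9 FPKM in Chow (49.6 ± 2.48, SD, n = 3) and at 40.9, 41.8 and 26.2 in HFpEF (36.3 ± 8.80, SD, n = 3). For both subunits every HFpEF library was below every Chow library, as in 19.8% of all genes. The log2 fold change of Pcca was -0.63 (standard error 0.19, adjusted p of 0.146 in limma) and that of Pccb was -0.48 (standard error 0.20, adjusted p of 0.208). Without HFpEF replicate 3 Pcca fell by 0.41 on the log2 scale with an adjusted p of 0.0343 in limma, and Pccb had a log2 fold change of -0.26 with an adjusted p of 0.0718.

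The valine branch runs through Hibch, Hibadh and Aldh6a1. Hibch (ENSMUSG00000041426, chr1:52844929-52920986, plus strand), the 3-hydroxyisobutyryl-CoA hydrolase, was at 12.2, 12.0 and 12.7 FPKM in Chow and at 9.12, 8.46 and 4.84 in HFpEF. Its groups did not overlap, and its log2 fold change of -0.76 was the lowest of the set (standard error 0.24, adjusted p of 0.149 in limma). Hibadh, the 3-hydroxyisobutyrate dehydrogenase, was at 23.2 to 26.2 FPKM in Chow and at 10.1 to 19.8 in HFpEF, and Aldh6a1, the methylmalonate semialdehyde dehydrogenase, was at 45.1 to 49.5 and at 20.2 to 42.8. Hibch and Hibadh fell without HFpEF replicate 3 (adjusted p of 0.0222 and 0.0456 in limma), and Aldh6a1 then had a log2 fold change of -0.17 and an adjusted p of 0.191.

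The 3 ketone members had a median log2 fold change of -0.69. Each was lower with an unadjusted p under 0.05 in limma, as were 13.1% of all genes. Each also had every HFpEF library below every Chow library, as had 19.8% of all genes. Bdh1 (ENSMUSG00000046598, chr16:31422280-31458901, plus strand), the dehydrogenase that turns 3-hydroxybutyrate into acetoacetate, was at 12.3, 24.2 and 23.0 FPKM in Chow (19.8 ± 6.54, SD, n = 3) and at 7.34, 11.6 and 7.79 in HFpEF (8.90 ± 2.32, SD, n = 3). Chow replicate 1 was far below the other Chow libraries and just above the highest HFpEF library. The log2 fold change of -1.12 was the lowest of all members, with a standard error of 0.30 and an adjusted p of 0.124 in limma. Bdh1 alone among the members did not follow the step down in HFpEF replicate 3, and without that library its log2 fold change was -1.04 with an adjusted p of 0.173.

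Oxct1 (ENSMUSG00000022186, chr15:4026383-4155344, plus strand), the CoA transferase that commits acetoacetate to oxidation in the heart, was at 307, 330 and 329 FPKM in Chow (322 ± 12.8, SD, n = 3) and at 221, 230 and 158 in HFpEF (203 ± 39.0, SD, n = 3). Acat1 (ENSMUSG00000032047, chr9:53580522-53610382, minus strand), the thiolase that splits acetoacetyl-CoA and also serves isoleucine breakdown, was at 154, 155 and 162 FPKM in Chow (157 ± 4.44, SD, n = 3) and at 121, 118 and 64.5 in HFpEF (101 ± 31.8, SD, n = 3). In both genes each HFpEF mouse was below each Chow mouse, as in 19.8% of all genes. The log2 fold changes were -0.69 for each gene, with adjusted p of 0.12 for Oxct1 and 0.183 for Acat1 in limma. Without HFpEF replicate 3 they fell by 0.52 and 0.40 on the log2 scale, with adjusted p of 0.0139 and 0.0175 in limma.

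Ratios of members within a library do not depend on the scaling between libraries, and 11 such pairs were compared. In 10 of 11 the groups overlapped. The exception was Pcca over Pccb, the subunits of propionyl-CoA carboxylase, with a ratio of FPKM of 0.354, 0.376 and 0.374 in Chow and of 0.353, 0.310 and 0.333 in HFpEF. The log2 difference was -0.15, and its exact two-sided permutation p of 0.1, the smallest that 3 mice against 3 allow, became 0.629 after adjustment over the 11 pairs. The other pairs had differences from -0.17 for Idh3b over Idh3a to 0.43 for Oxct1 over Bdh1 and adjusted exact permutation p from 0.629 to 0.9. The ratio of the BCKDH kinase to its phosphatase, Bckdk over Ppm1k, was 1.30, 1.33 and 1.11 in Chow and 0.973, 1.05 and 1.35 in HFpEF. HFpEF replicates 1 and 2 were below the Chow values for this ratio and replicate 3 was above them.

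Other genes of the same pathways, 52 in all, were examined beside the members, and 0 of the 49 tested passed an adjusted p of 0.05 in limma. Of 27 TCA, pyruvate entry and shuttle genes, 16 were lower and 2 were higher at an unadjusted p of 0.05, with a median log2 fold change of -0.57. Of 15 branched-chain genes, 7 were lower and 1 was higher, with a median of -0.44, and of 7 ketone genes, 1 was lower and 3 were higher, with a median of 0.092. The background for these counts is that given above, 13.1% lower and 10.2% higher. Nnt, Bcat1 and Oxct2a were below the filter on low values. For Nnt only the longer gene model was used, and 3339 of its 7037 exon bases are shared with another Nnt model on the same strand. Whether this lowered its value was not tested.

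Several of these genes went against the members. Slc25a1, the mitochondrial citrate carrier, was at 3.41, 4.29 and 2.79 FPKM in Chow and at 6.71, 9.14 and 7.92 in HFpEF, with a log2 fold change of 1.17 (standard error 0.19, adjusted p of 0.0847 in limma). Pdk3, a kinase that inactivates pyruvate dehydrogenase, was at 0.877, 1.46 and 1.26 FPKM in Chow and at 4.82, 3.43 and 2.89 in HFpEF, a log2 fold change of 1.55 (adjusted p of 0.0847 in limma). Aacs, which activates acetoacetate for lipid synthesis in the cytosol, was at 1.48, 1.37 and 1.82 FPKM in Chow and at 2.68, 3.09 and 3.81 in HFpEF, a log2 fold change of 0.99 (adjusted p of 0.0989 in limma). All 3 genes were higher in each HFpEF mouse than in any Chow mouse, as were 15.5% of all genes. Without HFpEF replicate 3 all 3 rose (adjusted p of 0.0347, 0.0201 and 0.0412 in limma), as did 2.85% of all genes. These 3 were named because their p was among the 3 lowest of their lists, so this separation partly follows from that choice. Abat, the GABA aminotransferase, was singled out after its values were seen: it was at 2.21, 1.70 and 1.64 FPKM in Chow and at 5.42, 6.35 and 1.23 in HFpEF. HFpEF replicates 1 and 2 were above all Chow libraries and replicate 3 was below them, so the log2 fold change was 0.90 with an adjusted p of 0.378 in limma, and Abat rose by 1.62 with an adjusted p of 0.0132 without HFpEF replicate 3. Bdh2, a cytosolic short-chain dehydrogenase, was at 0.116 to 0.140 FPKM in Chow and at 0.500 to 0.621 in HFpEF, on 7 to 51 reads. Summed adipocyte markers were likewise at 0 to 0.048 FPKM in Chow and at 36.6 to 89.3 in HFpEF, and their part in these higher levels was not tested.

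The other genes named here were lower, like the members. Mpc2, a subunit of the mitochondrial pyruvate carrier, was at 31.5, 31.8 and 35.8 FPKM in Chow and at 21.4, 23.2 and 16.3 in HFpEF. On the leucine and isoleucine branches, Auh, methylglutaconyl-CoA hydratase, was at 7.73 to 8.29 FPKM in Chow and at 4.59 to 5.45 in HFpEF, and Hsd17b10, 3-hydroxy-2-methylbutyryl-CoA dehydrogenase, was at 82.9 to 90.3 and at 44.1 to 58.7. Acss1, the mitochondrial acetyl-CoA synthetase, was at 114 to 122 FPKM in Chow and at 51.0 to 81.6 in HFpEF. In these 4 genes every HFpEF library was below every Chow library, as in 19.8% of all genes. Log2 fold changes ran from -0.79 for Acss1 to -0.66 for Auh, with adjusted p from 0.083 for Auh to 0.119 for Acss1 in limma. All 4 fell without HFpEF replicate 3, as did 5.5% of all genes at an adjusted p of 0.05 in limma. They too were named for a p among the 3 lowest of their lists, so this separation partly follows from that choice.

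**Figure D5:**
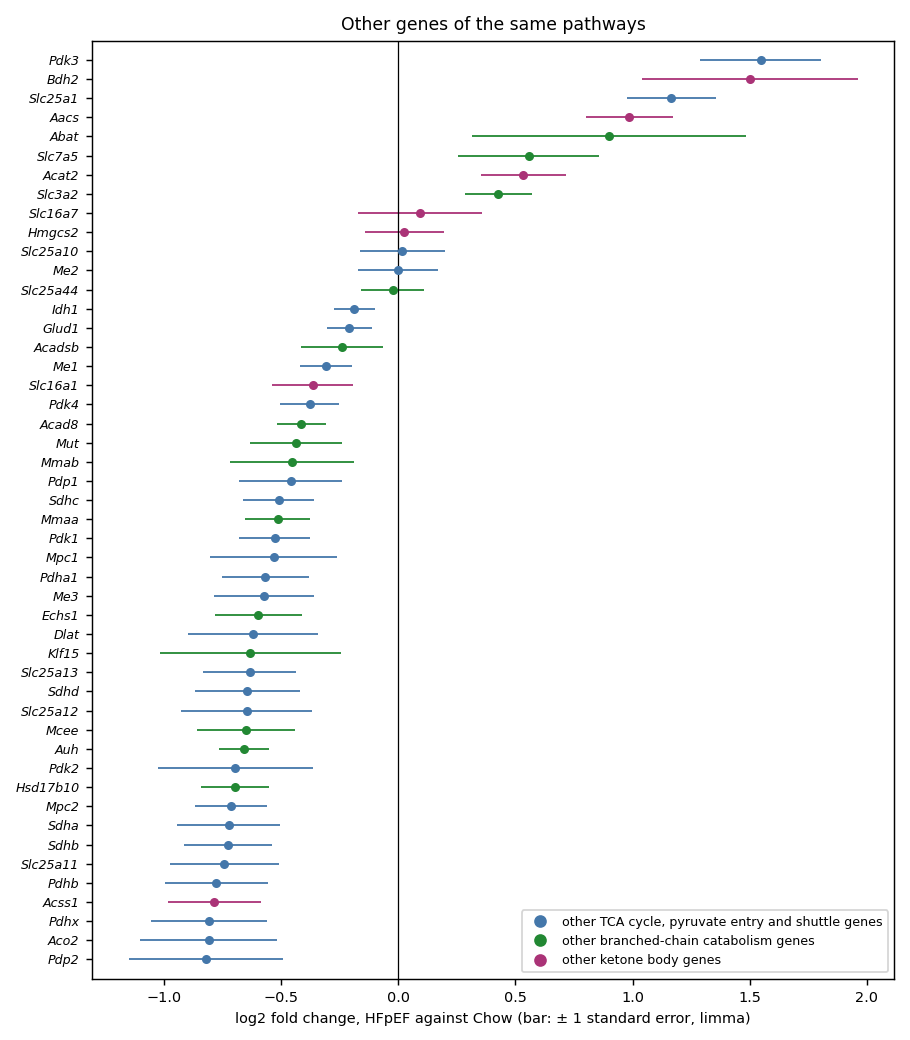
Log2 fold change of tested pathway genes that are not members, HFpEF against Chow in all 6 libraries, with 1 standard error from limma (blue, TCA, pyruvate entry and shuttle; green, branched-chain; magenta, ketone). Most lie below 0, and Pdk3, Bdh2, Slc25a1 and Aacs lie furthest above it.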

How the data were processed

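Left ventricular RNA was sequenced in 3 Chow and 3 HFpEF mice, and the labels gave each library's group and number. The authors used HISAT2 for alignment and featureCounts for gene counts, and the deposited values are FPKM; the submitters' processing notes name GRCm38 (mm10), and the annotation, strand setting and FPKM formula are not given in the sources used here. FPKM times GENCODE M21 exon length gave whole multiples of a step for 96.1% to 96.2% of values above 0 (relative tolerance 1e-06), from which reads were recovered.

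Values were scaled by the median of ratios and taken as log2(FPKM + 0.1). The factors were 0.999 to 1.00, so the deposited values already lay near that scale. The scaled values are those used below the log2. They were fitted with limma 3.58.1 in R 4.3.3 (eBayes with trend and robust) on the 14227 genes that reached an FPKM of 0.5 in 3 or more libraries, with Benjamini-Hochberg adjustment over all of them. Fold changes are on that scale and understate changes of low genes. Within-library ratios used an exact two-sided permutation test over libraries. The limma script was tested on simulated data.

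The members, the other pathway genes, the marker lists and the pairs were chosen with earlier results of these data known. Named in full were, in each set, the 4 members with the lowest p (all 3 for ketones), the 2 with the highest Chow mean and both members of pairs whose ratio did not overlap, and in each list of other pathway genes the 3 with the lowest p (1 such gene is not reported here); other members described in full were picked for their role after their values were seen. Alternatives were other scalings, pseudocounts, filters, eBayes options, limma voom on recovered reads, a replicate block and leaving out each library.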

Additional observations from a re-analysis of the deposited data

How the results depend on the processing

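Of 544 values of single members under 16 alternatives, 501 kept their direction and their side of an adjusted p of 0.05, 21 passed it with the same sign and 22 changed sign. The count of members with an adjusted p under 0.05 in limma was 0 under the 10 alternatives that keep all 6 libraries and 0 to 21 when 1 library was left out, 21 being the value without HFpEF replicate 3. It was 5, all higher, with cardiomyocyte marker scaling and without HFpEF replicate 3, which was added with the results in view. The count at an unadjusted p of 0.05, 25 with all libraries, was 14 with quantile normalization, 28 with limma voom on recovered reads, 0 with cardiomyocyte marker scaling and 13 to 32 when 1 library was left out, and it was 13, 14 and 13 without Chow replicates 1, 2 and 3. The cause of these changes was not tested. At that unadjusted p, 13.1% of all genes were lower and 10.2% higher with all libraries, and 0.253% lower and 55.3% higher with cardiomyocyte marker scaling. The share over all genes is not given here for the other settings, so their member counts cannot be set against a background. With cardiomyocyte marker scaling, which moved the median of all genes to 0.65, medians were -0.017 for TCA and shuttle members, 0.097 for branched-chain members and -0.0070 for ketone members. On that scale 0.583% of all genes were lower and 68.6% were higher in every HFpEF library than in every Chow library. Among the members 3 had groups that did not overlap, Idh2 lower and Mccc1 and Pccb higher. The fold changes that then turned positive were 0.083 for Idh3a, 0.020 for Dld, 0.039 for Sucla2, 0.012 for Mdh1, 0.011 for Got1, 0.44 for Pcx, 0.091 for Bcat2, 0.0030 for Bckdha, 0.088 for Bckdhb, 0.15 for Dbt, 0.23 for Bckdk, 0.39 for Ppm1k, 0.10 for Ivd, 0.16 for Mccc1, 0.066 for Mccc2, 0.052 for Pcca, 0.20 for Pccb, 0.010 for Hibadh, 0.17 for Aldh6a1 and 0.00088 for Oxct1. With 1 library left out, Pcx ranged from -0.49 to 0.14 and Ppm1k from -0.52 to 0.12, and the log2 ratios of Mdh2 over Mdh1 from -0.11 to 0.037, of Got2 over Got1 from -0.16 to 0.048 and of Oxct1 over Cs from -0.098 to 0.19; the values of the other sign came without HFpEF replicate 3. Libraries of the same number did not deviate together (correlations of -0.041, -0.073 and -0.057), and with a replicate block 0 members passed the adjusted and 26 the unadjusted p.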
